A study of Mus musculus with 6 samples.

Results

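The CXC chemokines described here were 8 genes, Cxcl1, Cxcl2, Cxcl3, Cxcl5, Cxcl9, Cxcl10, Cxcl12 and Cxcl16, taken by gene symbol from a table of 54532 mouse genes. Their levels were compared between 3 libraries of wild type (WT) neutrophils and 3 libraries of progranulin knockout (PGRN KO) neutrophils. Progranulin, encoded by Grn, is a secreted glycoprotein. All 6 libraries came from strain C57BL/6J according to the labels, and all held neutrophils isolated from bone marrow with anti-Ly-6G magnetic beads, kept for 2 h in siliconized tubes, and challenged with live Candida albicans, a pathogenic yeast, for 6 h. The WT libraries carry the word control in their titles, but they received the fungus too, and no unchallenged library was analysed here, so induction by the fungus could not be measured. PGRN KO mice lacked the gene in every cell and were bought from another source than the WT mice, so that genotype and source cannot be told apart. Mice were matched for sex and age, the ages themselves and the number of mice per culture are unknown here, and the p-values measure only the spread between these cultures.

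Chemokines are small secreted proteins that guide leukocytes by binding G protein-coupled receptors. The CXC class has 1 residue between its first pair of cysteines. Members with the tripeptide glutamate-leucine-arginine (ELR) just before these cysteines, such as Cxcl1, Cxcl2, Cxcl3 and Cxcl5, bind Cxcr2 and recruit neutrophils, which also make some of these ligands themselves when they meet microbes. The members without ELR act mainly on other cells. Cxcl9 and Cxcl10 are interferon-inducible ligands of Cxcr3 on T and NK cells, Cxcl12 binds Cxcr4 and retains neutrophils and progenitors in the bone marrow, and Cxcl16 is made as a membrane protein that binds Cxcr6.

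The ELR division was read directly from the coding sequence of each gene's principal transcript in GENCODE M21 (build GRCm38). The codons around the first Cys-X-Cys are printed because they set the neutrophil-attracting ligands apart from the others. Each run ends with the Cys-X-Cys codons, and capitals mark the 3 ELR codons where they were found.
Cxcl1: atcgccaatGAGCTGCGCtgtcagtgc
Cxcl2: gtggccagtGAACTGCGCtgtcaatgc
Cxcl3: gtggccagtGAGCTGCGCtgtcagtgc
Cxcl5: gccgcaacgGAGCTGCGTtgtgtttgc
Cxcl9: gtgataaggaatgcacgatgctcctgc
Cxcl10: ctcgcaaggacggtccgctgcaactgc
Cxcl12: gtcagcctgagctaccgatgcccctgc
Cxcl16: ggcagtgtcgctggaagttgttcttgt
ELR codons stood immediately before Cys-X-Cys in Cxcl1, Cxcl2, Cxcl3 and Cxcl5, and in none of the other 4 genes. Cxcl2 and Cxcl3 were the closest pair, with identical bases at 89.7% of 300 aligned coding positions and a longest run of 110 identical bases between their transcripts. Cxcl1 shared 75.7% of aligned coding positions with Cxcl2 and 72.7% with Cxcl3, with a longest identical run of 23 bases in both cases. Cxcl9 and Cxcl10 shared 43.5%. The methods of the study give a read length above that of the run common to Cxcl2 and Cxcl3, so full-length reads reach beyond it. Whether all reads of this pair were given to the right gene was not tested. The level of Cxcl3, which was far below that of Cxcl2, is therefore less certain than the others.

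Of the 8 genes, 6 lie on chromosome 5. Cxcl5 (ENSMUSG00000029371) lies at chr5:90759360-90761624, Cxcl3 (ENSMUSG00000029379) at chr5:90786103-90789600, Cxcl1 (ENSMUSG00000029380) at chr5:90891241-90893115 and Cxcl2 (ENSMUSG00000058427) at chr5:90903871-90905938, all on the plus strand in GRCm38. The stretch from the start of Cxcl3 to the end of Cxcl2 spans 119.8 kb. Cxcl9 (ENSMUSG00000029417, chr5:92321347-92328079) and Cxcl10 (ENSMUSG00000034855, chr5:92346638-92348889) follow 1.42 Mb further on, on the minus strand. Cxcl12 (ENSMUSG00000061353) lies at chr6:117168535-117181367 on the plus strand. Cxcl16 (ENSMUSG00000018920) lies at chr11:70453983-70459984 on the minus strand, 31.97 Mb from Grn on the same chromosome. Cxcl10 lies within Art3, a gene of the opposite strand with a mean of 0.135 FPKM in WT and 0.162 in PGRN KO. Cxcl16 overlaps the oppositely oriented Zmynd15 by 552 bases, and Zmynd15 had a mean of 1.04 FPKM in WT and 0.638 in PGRN KO. No source used here says whether reads were counted by strand, and without strand the reads of such overlaps cannot be told apart.

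RefSeq promoter sequences (GRCm38.p6) matched 6 of the 8 genes, and the 180 bases before the RefSeq start were searched on both strands for 4 motifs. The promoters of the 4 detected chromosome 5 members are shown because they hold the motif these genes have in common. Bases inside the gene as the deposited table places it were left off, and capitals mark matches to the NF-kB consensus, the binding motif of the transcription factor family that drives many inflammatory genes.
Cxcl1, chr5:90891065-90891240, plus strand: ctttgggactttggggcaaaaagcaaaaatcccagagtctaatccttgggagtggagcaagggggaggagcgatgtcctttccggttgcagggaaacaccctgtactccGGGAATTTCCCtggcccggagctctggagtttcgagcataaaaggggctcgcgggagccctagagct
Cxcl2, chr5:90903719-90903870, plus strand: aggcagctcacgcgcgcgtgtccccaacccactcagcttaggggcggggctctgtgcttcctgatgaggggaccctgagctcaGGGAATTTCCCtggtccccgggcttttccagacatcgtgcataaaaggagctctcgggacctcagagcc
Cxcl3, chr5:90785921-90786100, plus strand: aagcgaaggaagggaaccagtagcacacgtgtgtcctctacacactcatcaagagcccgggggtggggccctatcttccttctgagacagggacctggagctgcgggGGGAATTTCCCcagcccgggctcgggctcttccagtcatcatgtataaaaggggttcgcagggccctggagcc
Cxcl10, chr5:92348890-92349069, minus strand: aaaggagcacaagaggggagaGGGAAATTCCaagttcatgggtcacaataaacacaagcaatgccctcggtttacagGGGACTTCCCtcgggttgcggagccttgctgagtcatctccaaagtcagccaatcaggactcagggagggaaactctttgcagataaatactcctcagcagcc
Cxcl1, Cxcl2 and Cxcl3 shared the 11-base run GGGAATTTCCC, which read as an NF-kB match on both strands and began 71, 97 and 73 bases before the RefSeq start, respectively. This run was present in 11 of 32851 promoters, or 0.0335%. It was picked as the longest run that these genes share, and the 11 include their own promoters. Cxcl10 held 2 different NF-kB matches, GGGAAATTCC at 159 and GGGACTTCCC at 103 bases before its start. An NF-kB match of any kind was present in 2.86% of all promoters. Cxcl10 also held an AP-1 match (TGAGTCA, 74 bases before the start), a motif found as TGAGTCA or TGACTCA in 3.33% of promoters. Cxcl3 held a TATA box (TATAAA) 30 bases before its start, found in 8.94% of promoters. The interferon-stimulated response element core GAAANNGAAA was in none of the 6 windows and in 2.01% of all promoters. Bases more than 180 before the start were not searched, so these genes may hold the core farther upstream. The Cxcl9 and Cxcl12 windows held none of the 4 motifs. These matches describe letters in a window and not binding.

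Levels are given in FPKM, fragments scaled to gene length and to library size, as deposited. The libraries held between 17087344 and 18821091 fragments on genes. The WT libraries had 168, 161 and 166 FPKM of Grn against 0.242, 0.206 and 0.747 FPKM in PGRN KO, which matched the labels. The neutrophil genes S100a8, S100a9, Ngp and Camp had group means from 4396.0 to 36371 FPKM, and all 8 neutrophil markers were detected.

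Cxcl2 was by far the most abundant CXC chemokine in these neutrophils. Its mean over the 6 libraries was 3621.6 FPKM, rank 13 among all 54532 genes, and it made up between 95.6% and 96.7% of the summed FPKM of the 8 genes in every library. Cxcl10 followed with a mean of 89.3 FPKM, then Cxcl3 with 26.5, Cxcl16 with 19.99 and Cxcl1 with 12.3 FPKM. The ranges of neighbours in this order did not overlap within either genotype. Cxcl5, Cxcl9 and Cxcl12 had means of 0.0484, 0.0188 and 0.0157 FPKM and could not be ordered. The order of the lower pair rested on the gene length used. The deposited lengths count every base of every exon of any transcript, which for Cxcl1, Cxcl2, Cxcl3 and Cxcl10 equals the whole span of the gene. With the length of the principal coding transcript instead, an alternative chosen after the data were seen, the means became 6753.4 for Cxcl2, 184 for Cxcl10, 91.1 for Cxcl3, 24.2 for Cxcl1 and 22.4 FPKM for Cxcl16. On that scale Cxcl1 (26.5 to 28.9 FPKM) and Cxcl16 (25.2 to 27.8 FPKM) overlapped in WT, while in PGRN KO Cxcl1 (19.7 to 22.5 FPKM) lay above Cxcl16 (17.1 to 19.0 FPKM). Gene length cancels in a ratio of FPKM between genotypes, though not fully on the log2(FPKM + 1) scale of the tests, which were not rerun with the other lengths.

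The comparison of genotypes asked whether neutrophils without PGRN held less or more chemokine mRNA after the fungal challenge. Cxcl1, Cxcl2, Cxcl3, Cxcl10 and Cxcl16 were all lower in PGRN KO than in WT, by between 17.7% and 42.2% of the WT mean, and in each of them every PGRN KO library lay below every WT library. Tests used limma on log2(FPKM + 1) over the 14807 genes with a mean of at least 0.1 FPKM, and a gene was called at a Benjamini-Hochberg adjusted p under 0.05. The 5 genes were called lower and 0 higher, where 9.95% of all tested genes were called lower, 7.94% higher, and 19.6% had no PGRN KO library as high as any WT library, while Cxcl5, Cxcl9 and Cxcl12 did not reach 0.1 FPKM and were not tested. Log2 fold changes are PGRN KO minus WT on the log2(FPKM + 1) scale throughout.

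Among the ELR ligands, Cxcl3 had the largest change of the detected members. Cxcl3, a neutrophil attractant that acts through Cxcr2, had 30.2, 33.3 and 37.2 FPKM in WT and 22.2, 18.3 and 17.7 FPKM in PGRN KO. The lowest WT library was well above the highest PGRN KO library, and PGRN KO 4 was the highest of its group. The group means were 33.6 ± 3.53 FPKM (SD, n = 3) in WT and 19.4 ± 2.42 FPKM (SD, n = 3) in PGRN KO, a log2 fold change of -0.76 ± 0.11 (SE, limma, adjusted p = 0.00507).

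Cxcl2, also known as MIP-2, is among the strongest neutrophil attractants of the mouse. WT libraries held 4000.2, 3979.6 and 3937.1 FPKM of it, and PGRN KO libraries 3575.5, 3137.7 and 3099.5 FPKM. The WT values were nearly equal, with a coefficient of variation of 0.811%, and the PGRN KO values spread more, with 8.09%, PGRN KO 4 standing closest to WT. The means were 3972.3 ± 32.2 FPKM (SD, n = 3) and 3270.9 ± 264 FPKM (SD, n = 3), a log2 fold change of -0.28 ± 0.06 (SE, limma, adjusted p = 0.0272). This was the smallest change of the 5 and the least stable. Cxcl2 was lower in all 16 alternatives but called in 8 of them. Quantile normalization took the log2 fold change to -0.04 (adjusted p = 0.644, limma), and scaling by plain fragment totals took it to -0.16 (adjusted p = 0.117, limma). Leaving out WT 1, WT 2, WT 3, PGRN KO 5 or PGRN KO 6 also ended the call, with limma adjusted p of 0.0852, 0.0951, 0.0675, 0.0987 and 0.0696, and only the fit without PGRN KO 4 kept it among these (adjusted p = 0.00431).

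Cxcl1, known as KC, is the third ELR ligand of this locus with a clear level. It had 13.6, 13.5 and 14.7 FPKM in WT and 10.0, 11.5 and 10.5 FPKM in PGRN KO, counted from 335 to 471 fragments per library. No PGRN KO library reached the lowest WT library, and here PGRN KO 4 was the lowest of its group. The means were 13.9 ± 0.653 and 10.7 ± 0.731 FPKM (mean ± SD of 3 libraries), which gave a log2 fold change of -0.36 ± 0.06 (SE, limma, adjusted p = 0.0122).

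Cxcl5, the ELR ligand better known from epithelial cells, was at the detection limit. WT libraries gave it 0, 0 and 3 fragments, and PGRN KO libraries 1, 1 and 5. A count of 0 allows up to 3 fragments, which for this gene is 0.0819 to 0.0966 FPKM depending on the library, so that no difference was detectable at this depth.

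Of the members without ELR, Cxcl10 was the most abundant. Cxcl10, known as IP-10, attracts activated T and NK cells. It had 95.8, 98.9 and 105 FPKM in WT and 74.5, 81.0 and 80.8 FPKM in PGRN KO. The groups were separated by more than the width of either. Means were 99.9 ± 4.70 and 78.8 ± 3.69 FPKM (SD, n = 3 in both), and the log2 fold change was -0.34 ± 0.05 (SE, limma, adjusted p = 0.00849).

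Cxcl9, or MIG, binds the same receptor as Cxcl10 and is chiefly induced by interferon-gamma, but it was not detected above the floor. Its counts were 1, 3 and 0 fragments in WT and 0, 0 and 2 in PGRN KO, where Cxcl10 had 3665 to 4051 fragments per WT library. The limit that a count of 0 allows was 0.0506 to 0.0596 FPKM.

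Cxcl16 is made as a transmembrane protein that also takes up oxidized lipoprotein. It had 23.6, 22.5 and 24.8 FPKM in WT and 16.8, 15.2 and 16.9 FPKM in PGRN KO. The libraries of each genotype lay close together, and the gap between the genotypes was wide beside them. Means were 23.7 ± 1.16 and 16.3 ± 0.946 FPKM (SD, n = 3 in both). The log2 fold change of -0.51 ± 0.06 (SE, limma) had the smallest adjusted p of the 5 tested members, 0.00296.

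Cxcl12, the stromal ligand that holds neutrophils in the marrow, was at the detection limit as well. It had 0, 2 and 2 fragments in WT and 2, 3 and 5 in PGRN KO, and 3 fragments stand for 0.0187 to 0.022 FPKM. The counts overlapped between the genotypes. With all genes above 0 in any library entered in the test, limma gave log2 fold changes of 0.05 for Cxcl5 (adjusted p = 0.664), -0.02 for Cxcl9 (adjusted p = 0.694) and 0.02 for Cxcl12 (adjusted p = 0.58).

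**Figure D1:**
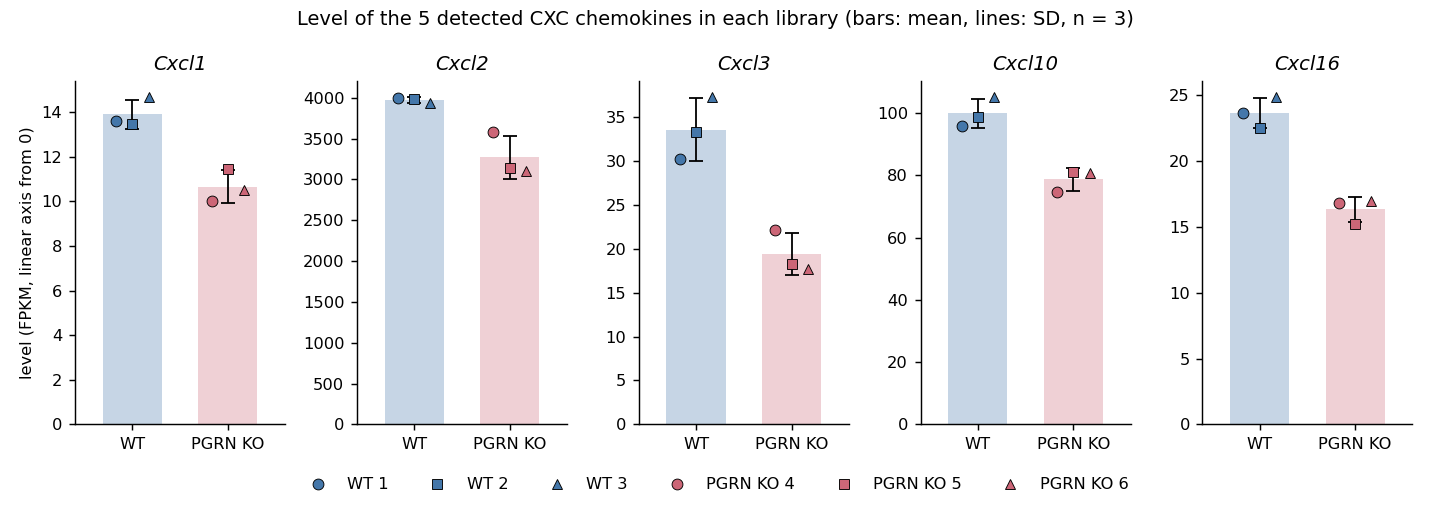
Level of the 5 detected CXC chemokines in each library, in FPKM on linear axes that start at 0 and differ between panels; bars are means, lines are SDs (n = 3), and each marker is 1 library. Marker shapes only name libraries and pair none of them. In all 5 panels every PGRN KO library lies below every WT library, and Cxcl2 is on a scale up to 4000.2 FPKM against 37.2 FPKM for Cxcl3.

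These calls stood among many others. Among the 3482 genes with a mean of at least 10 FPKM, to which the 5 detected chemokines belong, 23.6% were called lower. Within these 3482 genes, 70 had a lower log2 fold change than Cxcl3, 216 than Cxcl16, 459 than Cxcl1, 498 than Cxcl10 and 654 than Cxcl2. The median log2 fold change was -0.36 for the 5 chemokines, -0.05 for the 3482 genes and 0.0026 for all tested genes. The balance of calls depended on scaling. The deposited values used a library size that differed from the plain fragment total, and plain totals moved PGRN KO against WT by 0.12 on the log2 scale. The main fit called 1175 genes higher and 1473 lower (44.4% of calls higher), plain totals 2149 and 933 (69.7% higher), and voom on fragment counts 2986 and 1252 (70.5% higher). The plain totals also took the median of all tested genes to 0.067.

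Cxcl1, Cxcl3, Cxcl10 and Cxcl16 were called lower in all 16 alternatives. Their log2 fold changes ranged from -0.40 to -0.24 for Cxcl1, from -0.86 to -0.65 for Cxcl3, from -0.37 to -0.22 for Cxcl10 and from -0.54 to -0.39 for Cxcl16. Tested as single genes with an exact two-sided permutation test, each of the 5 gave p = 0.1, the smallest that 3 against 3 libraries allow. In these bulk libraries, less mRNA per cell and fewer cells that make it cannot be told apart.

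**Figure D2:**
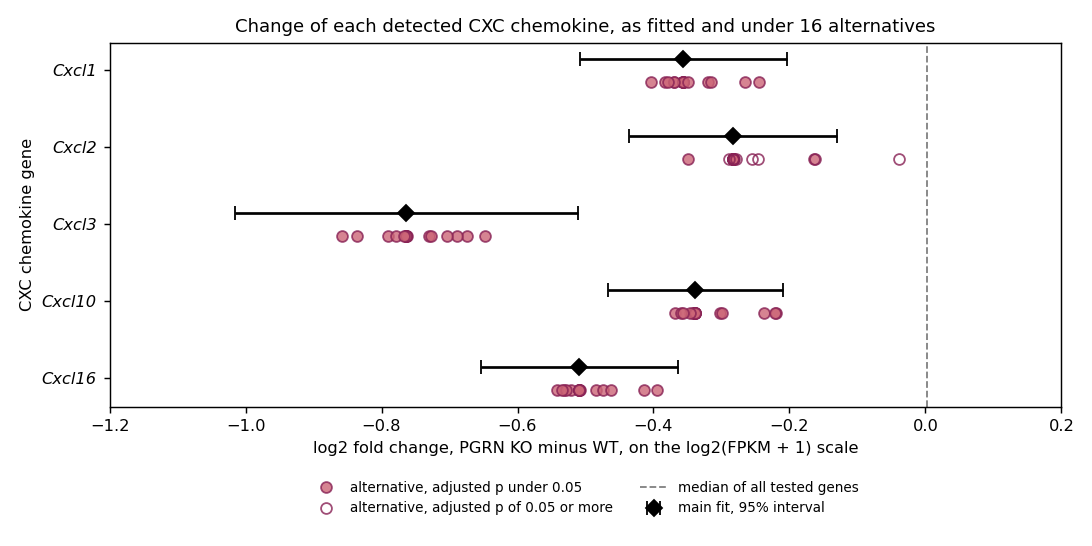
Log2 fold change (x axis, PGRN KO minus WT, log2(FPKM + 1) scale) of the 5 detected CXC chemokines, as diamonds with 95% intervals from limma, and below each the values under 16 alternatives, filled where the adjusted p was under 0.05. All points lie below 0, those of Cxcl3 farthest away (-0.86 to -0.65), and only Cxcl2 has open circles (8 of 16 filled).

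The ratio of 2 chemokines within a library does not change when 1 factor scales the whole library, though quantile normalization can change it. The ratio shows whether their changes were of the same size. Of 10 pairs among the 5 detected genes, the ratios of 5 pairs did not overlap between genotypes. These pairs share genes and are not independent, and no share over other pairs of genes was computed. The ratio of Cxcl2 to Cxcl3 was 133, 120 and 106 in WT and 161, 171 and 175 in PGRN KO. Cxcl10 to Cxcl3 was 3.18, 2.97 and 2.82 in WT and 3.36, 4.43 and 4.57 in PGRN KO. Relative to Cxcl2 and to Cxcl10, Cxcl3 was therefore lower in PGRN KO by a mean of 0.51 and 0.45 on the log2 scale. Cxcl3 to Cxcl1 was 2.21, 2.47 and 2.54 in WT and 2.21, 1.598 and 1.68 in PGRN KO, with WT 1 and PGRN KO 4 almost touching. Cxcl2 to Cxcl16 was 169, 177 and 159 in WT and 213, 206 and 183 in PGRN KO. Cxcl10 to Cxcl16 was 4.06, 4.39 and 4.23 in WT and 4.44, 5.32 and 4.77 in PGRN KO. The remaining 5 pairs overlapped, among them Cxcl10 to Cxcl1, which was 7.03, 7.34 and 7.16 in WT and 7.45, 7.07 and 7.68 in PGRN KO. With an exact two-sided permutation test the 5 separated pairs had p = 0.1 each, the smallest possible here, and p = 0.2 after adjustment over the 10 pairs, so that no difference in size between members passed a threshold.

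**Figure D3:**
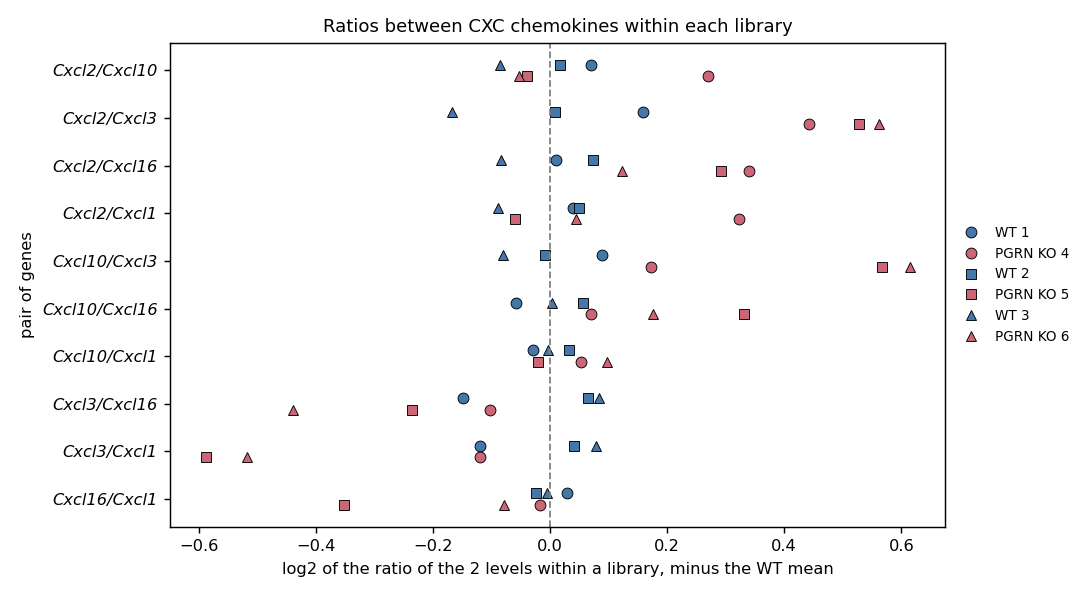
Ratio of 2 CXC chemokine levels within each library, as log2 minus the mean of the WT libraries (x axis), for the 10 pairs of detected genes (y axis). Blue markers are WT and red markers PGRN KO libraries, and shapes only name libraries. The pairs of Cxcl3 with Cxcl2 and with Cxcl10 move farthest to the right, by a mean of 0.51 and 0.45, and the pair of Cxcl10 with Cxcl1 moves least, by 0.04.

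The other CXC ligand genes were scarce. Of 7 further genes, 2 could be tested. Cxcl11, a ligand of Cxcr3 that lies beside Cxcl10, had 0.748 ± 0.0836 FPKM in WT and 0.643 ± 0.376 FPKM in PGRN KO (mean ± SD of 3 libraries), which gave a log2 fold change of -0.11 that was not called (limma, adjusted p = 0.684). Pf4, platelet factor 4, lies between Cxcl5 and Cxcl3 and rose. It had 2, 3 and 6 fragments in WT and 11, 14 and 12 in PGRN KO, with a log2 fold change of 0.57 (limma, adjusted p = 0.0147), and this call was lost without WT 2 or without PGRN KO 5 (adjusted p up to 0.0586). Itga2b, Gp9, Gp6, Gp1bb and Treml1, the platelet and megakaryocyte markers, summed to 0.451 to 0.595 FPKM in WT and 0.605 to 0.788 FPKM in PGRN KO, with Gp1bb at 0 throughout and none of the 2 tested genes called. Itga2b had 44 fragments in WT and 102 in PGRN KO and moved the same way as Pf4 (log2 fold change 0.21, adjusted p = 0.0727, limma). It was called higher with plain totals (adjusted p = 0.047, limma) and with voom (adjusted p = 0.00659, limma). Gp6, the other tested marker, had 81 and 96 fragments and barely moved (log2 fold change 0.03, adjusted p = 0.872, limma). Gp9 had 5 fragments in WT and 2 in PGRN KO, and Treml1 had 0 and 2. The part of the platelet and megakaryocyte markers in the Pf4 result was not tested. Ppbp, Cxcl14, Cxcl15 and Cxcl17 summed to 3, 6, 1 and 1 fragments in WT and to 5, 11, 1 and 0 in PGRN KO, and Cxcl13 was at 0 in every library.

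None of the 5 tested receptor genes was called in either direction by limma, with voom or under any other alternative, and 1 of the 5, Cxcr4, had an unadjusted p under 0.05. Cxcr2, the receptor of the ELR ligands, had 44.1 ± 2.08 FPKM in WT against 42.3 ± 4.05 FPKM without PGRN (mean ± SD of 3 libraries), which gave a log2 fold change of -0.06 (limma, adjusted p = 0.627). Cxcr1 had 6.27 and 5.85 FPKM (log2 fold change -0.09, adjusted p = 0.464, limma). Cxcr4, the receptor of Cxcl12, was the most abundant receptor gene, with 191 ± 4.47 FPKM in WT and 170 ± 11.3 FPKM in PGRN KO. Every PGRN KO library lay below every WT library for Cxcr4, but its log2 fold change of -0.17 was not called (limma, adjusted p = 0.0872). Cxcr5 and Cxcr6, the latter the receptor of Cxcl16, had group means under 1 FPKM and log2 fold changes of 0.14 and -0.05 (limma, adjusted p = 0.356 and 0.59). Cxcr3, the receptor of Cxcl9 and Cxcl10, summed to 1 fragment in WT and 8 in PGRN KO. Ackr3, a scavenger of Cxcl12, had 4 and 22 fragments, and Ackr1 was at 0. The median of the 5 tested receptors was -0.06, and it was 0.02 with plain totals.

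Proteases that are known to cut CXC ligands moved in both directions. Of 9 tested genes, 4 were called higher and 3 lower, where 7.94% and 9.95% of all tested genes were, and the list's median was -0.06, or 0.06 with plain totals. Ctsg, cathepsin G of neutrophil azurophil granules, had 13.8 ± 1.76 FPKM in WT and 105 ± 4.06 FPKM in PGRN KO (mean ± SD of 3 libraries), which gave a log2 fold change of 2.85 (limma, adjusted p = 1.8e-05). Prtn3, proteinase 3 of the same granules, rose with a log2 fold change of 2.32 (limma, adjusted p = 1.8e-05). Anpep, aminopeptidase N, fell with a log2 fold change of -1.15 (limma, adjusted p = 0.0017). Mmp8, neutrophil collagenase, fell with a log2 fold change of -0.45 (limma, adjusted p = 0.0365), a call kept in 9 of 16 alternatives and lost without WT 1, WT 2, WT 3 or PGRN KO 5, with adjusted p up to 0.105 over all alternatives. Leaving out any of these 4 libraries brought the count called lower to 1 and the count called higher to 3. Adam10, which sheds Cxcl16 from the membrane and is named here for that role after its values were seen, had 15.8 and 15.2 FPKM and was not called (log2 fold change -0.06, adjusted p = 0.552, limma). Adam17, also named after its values were seen, fell from 54.2 ± 1.46 to 45.4 ± 2.70 FPKM (mean ± SD of 3 libraries). Its log2 fold change was -0.25 (limma, adjusted p = 0.0216), a call kept in 9 of 16 alternatives, with adjusted p up to 0.114.

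Matches to the NF-kB consensus stood in the promoters of Cxcl1, Cxcl2, Cxcl3 and Cxcl10, where binding was not tested. The NF-kB pathway carries signals from fungal recognition receptors to many inflammatory genes. Of 14 tested genes, 4 were called lower and 0 higher, where 9.95% of all tested genes and 23.6% of those with at least 10 FPKM, the level of most of this list, were called lower. The median was -0.13. Malt1, the protease of the Card9 and Bcl10 complex, fell from 21.03 ± 1.05 to 12.3 ± 0.909 FPKM (mean ± SD of 3 libraries), which gave a log2 fold change of -0.73 (limma, adjusted p = 0.00118). Ikbkg, the regulatory subunit of the IkB kinase, fell with a log2 fold change of -0.59 (limma, adjusted p = 0.00143). Both were called in all 16 alternatives. Rel, an NF-kB subunit, and Nfkbia, the inhibitor IkB-alpha and itself an NF-kB target, stood just inside the threshold with log2 fold changes of -0.32 and -0.26 (limma, adjusted p = 0.0474 and 0.0491). Each kept its call in 6 of 16 alternatives, with adjusted p up to 0.145 and 0.203. Rel lost it without any 1 of the 6 libraries, and Nfkbia without any 1 except PGRN KO 4, so that the list had 2 genes called lower in the fits without WT 1, WT 2, WT 3, PGRN KO 5 or PGRN KO 6. With plain totals the median was -0.01 and Chuk, the kinase IKK-alpha, was called higher (log2 fold change 0.23, adjusted p = 0.0326, limma).

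Some chemokine mRNAs are held short-lived by AU-rich elements in the 3′ untranslated region, the classical core of which is ATTTA. Cxcl2 held 11 such pentamers in its 3′ region, or 15 per kb, a density reached by 0.414% of 19325 genes. Cxcl1 held 7 (11.8 per kb, reached by 0.911%) and Cxcl3 held 5 (7.75 per kb, 2.89%). The members without ELR were nearer to the median of 1.1 per kb, with 2.74 per kb in Cxcl10, 1.41 in Cxcl16, 1.22 in Cxcl9 and 1.08 in Cxcl12, and Cxcl5 had 4.50.

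Of 7 tested regulators of chemokine mRNA stability, 1 was called lower and 0 higher, where 9.95% of all tested genes and 23.6% of those with at least 10 FPKM were called lower. The median was -0.22, and -0.10 with plain totals. Zfp36, tristetraprolin, which binds AU-rich elements and speeds mRNA decay, fell from 599 ± 8.33 to 387 ± 79.8 FPKM (mean ± SD of 3 libraries), which gave a log2 fold change of -0.65 (limma, adjusted p = 0.0225). The call was kept in 11 of 16 alternatives and lost without WT 1, WT 2, WT 3 or PGRN KO 5, with adjusted p up to 0.072, and the count called lower ranged from 0 to 4 over all alternatives.

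Cxcl9, Cxcl10 and Cxcl11 are classical interferon-inducible chemokines, so the genes of interferon signalling and response were listed beside them. Of 14 tested signalling genes, 8 were called lower and 0 higher, against the same shares of 9.95% and 23.6%. The median was -0.24, and -0.12 with plain totals. Jak1 and Jak2, kinases of the interferon receptors, fell with log2 fold changes of -0.41 and -0.39 (limma, adjusted p = 0.00565 and 0.00916). Stat2 and Irf7 fell least among those called, with log2 fold changes of -0.21 and -0.19 (limma, adjusted p = 0.02 and 0.047), and were called in 10 and 6 of 16 alternatives. Ifng was at 0 in every library, and Ifnb1 summed to 38 fragments in WT and 25 in PGRN KO (log2 fold change -0.29, adjusted p = 0.329, limma). The count called lower was 5 without WT 2 or without PGRN KO 5 and with plain totals or voom.

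Of 12 genes induced by interferons, 7 were called lower and 0 higher, where 9.95% of all tested genes and 23.6% of those with at least 10 FPKM were called lower. The median was -0.36, beside -0.34 for Cxcl10 itself, and it was -0.24 with plain totals. Mx1, an antiviral GTPase, fell from 21.9 ± 0.955 to 10.7 ± 1.502 FPKM (mean ± SD of 3 libraries), which gave a log2 fold change of -0.98 (limma, adjusted p = 0.00142). Oasl1 fell with a log2 fold change of -0.61 (limma, adjusted p = 0.000387), and Rsad2, or viperin, with -0.36 (limma, adjusted p = 0.0048). Irgm1 fell with a log2 fold change of -0.37 (limma, adjusted p = 0.0258), called in 10 of 16 alternatives. Isg15 and Ifit1 had log2 fold changes of -0.25 each and were not called (limma, adjusted p = 0.107 and 0.149), and Gbp2 had 0.18 (limma, adjusted p = 0.191) and was called higher with plain totals (log2 fold change 0.29, adjusted p = 0.0396, limma). The count called lower was 5 without WT 2 and 5 to 8 over all alternatives.

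**Figure D4:**
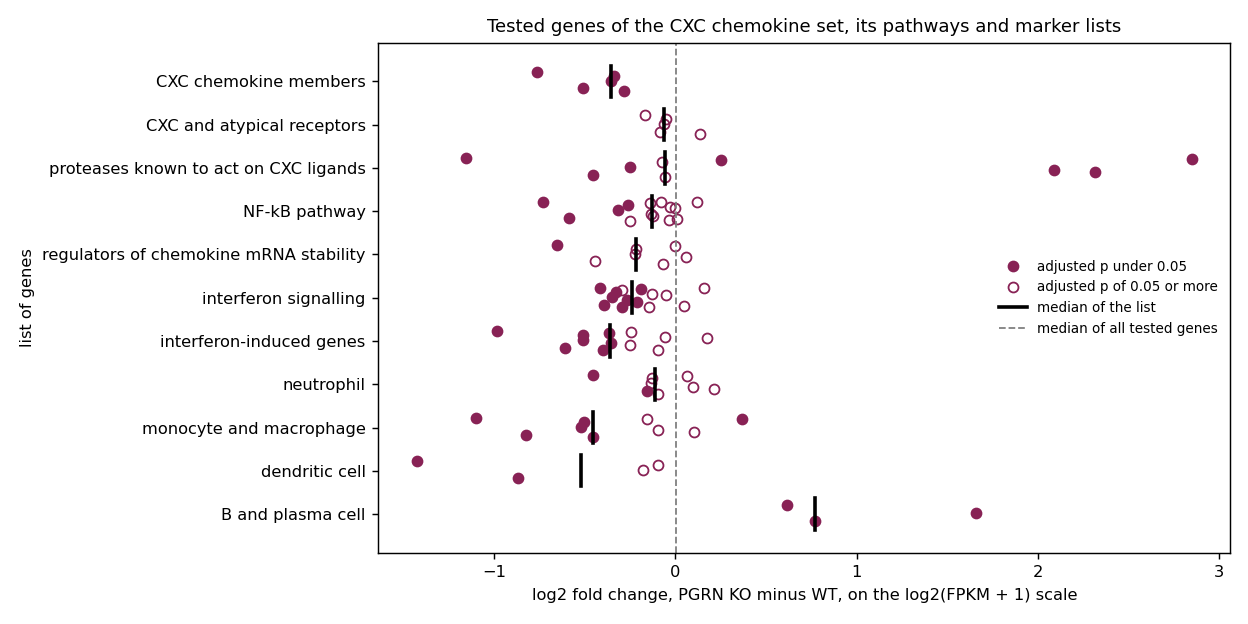
Log2 fold changes (x axis, PGRN KO minus WT, log2(FPKM + 1) scale) of the tested genes of each list (y axis), filled where the adjusted p was under 0.05, with the list's median as a black bar and the median of all tested genes (0.0026) as a dashed line. The 5 chemokines have a median of -0.36, the interferon-induced genes also -0.36, the receptors -0.06, and Ctsg of the protease list lies farthest to the right at 2.85.

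Monocytes, macrophages and dendritic cells also make Cxcl2, Cxcl10 and Cxcl16, and markers of these cells differed between the genotypes. Of 9 monocyte and macrophage markers, 5 were called lower and 1 higher, where 9.95% and 7.94% of all tested genes were, and their summed level was 548 to 555 FPKM in WT and 561 to 709.7 FPKM in PGRN KO. Ms4a6c and Ccr2 fell with log2 fold changes of -1.10 and -0.82 (limma, adjusted p = 0.000405 and 0.002), and F13a1 with -0.46 (limma, adjusted p = 0.0126). Ly6c2, which carries most of the sum, rose with 0.37 (limma, adjusted p = 0.0447), a call lost without any 1 library except PGRN KO 4 (adjusted p up to 0.14 over all alternatives). The uncalled markers were Csf1r, Adgre1 and Cx3cr1. Csf1r had 45.6 FPKM in WT and 40.9 in PGRN KO, and Adgre1 had 46.3 and 43.4. Log2 fold changes were -0.15 for Csf1r, -0.09 for Adgre1 and 0.10 for Cx3cr1 (limma, adjusted p = 0.105, 0.342 and 0.404). The count called lower was 3 without PGRN KO 5.

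The dendritic cell list summed to 48.9 to 54.7 FPKM in WT and 23.8 to 25.6 FPKM in PGRN KO. Where 9.95% of all tested genes were called lower, 2 of the list's 4 tested genes were. These were the class II genes H2-Aa and H2-Ab1, with log2 fold changes of -1.42 and -0.87 (limma, adjusted p = 5.5e-05 and 0.00113), which B cells and macrophages express as well. Of the genes that define dendritic cells, Xcr1 had 0.424 ± 0.0342 FPKM in WT and 0.261 ± 0.0473 FPKM in PGRN KO (SD, n = 3 in both) with no overlap, and Clec9a had means of 0.174 and 0.0973 FPKM. Neither was called (limma, adjusted p = 0.112 and 0.424). Flt3, Siglech and Cd209a did not reach 0.1 FPKM. The part of these cells in the chemokine results was not tested.

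Stromal and endothelial cells are the usual sources of Cxcl12 in the marrow. The counts of their markers called lower stand beside 9.95% of all tested genes. Of 7 bone marrow stromal markers, 3 were tested and 2 called lower, Col1a1 (log2 fold change -0.81, adjusted p = 0.0038, limma) and Col1a2 (-0.40, adjusted p = 0.0152, limma). The Col1a2 call was lost without WT 1 or PGRN KO 5. Pdgfrb, the other tested marker, had 50 fragments in WT and 68 in PGRN KO and was not called (log2 fold change 0.05, adjusted p = 0.747, limma). Lepr, Kitl and Dcn were not tested, with 4, 3 and 2 fragments in WT and 1, 1 and 2 in PGRN KO. The list summed to 4.31 to 5.38 FPKM in WT and 1.88 to 2.45 FPKM in PGRN KO, with Col3a1 at 0. The 5 endothelial markers summed to 2.17 to 3.05 FPKM in WT and 1.55 to 1.58 FPKM in PGRN KO, with Emcn at 0 and Kdr called lower (log2 fold change -0.52, adjusted p = 0.0152, limma; lost without WT 3 or PGRN KO 5). T and NK cell markers summed to at most 0.779 FPKM, with Cd3e at 0. The 1 tested gene, Cd3d, had 40 fragments in WT and 28 in PGRN KO and was not called (log2 fold change -0.15, adjusted p = 0.54, limma).

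B and plasma cell markers moved the other way, in a fit that called 7.94% of all tested genes higher. All 3 tested genes were called higher, Jchain with a log2 fold change of 1.66, Cd79b with 0.77 and Cd79a with 0.61 (limma, adjusted p = 0.000138, 0.00921 and 0.0343), and the list summed to 23.3 to 25.5 FPKM in WT and 66.9 to 82.2 FPKM in PGRN KO. The call of Cd79a was lost without WT 1, WT 3, PGRN KO 5 or PGRN KO 6 (adjusted p up to 0.115 over all alternatives). Of the 8 neutrophil markers, 0 were called higher and 2 lower, Csf3r (log2 fold change -0.16, adjusted p = 0.0335, limma) and Mmp8, with a median of -0.11 that was 0.01 with plain totals. Among all tested genes 9.95% were called lower, and among those with at least 10 FPKM 23.6%. Csf3r was called in 7 of 16 alternatives, and the count of neutrophil markers called lower was 0 without WT 1, WT 2, WT 3 or PGRN KO 5. The direction of the neutrophil marker counts turned with scaling, to 2 higher and 0 lower with quantile normalization (S100a9 and Camp), 1 higher and 0 lower with plain totals (S100a9) and 3 higher and 1 lower with voom (S100a9, Camp and Ngp higher).

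The genes with the most similar patterns over the 6 libraries were found among 9248 genes with a mean of at least 1 FPKM, by the Euclidean distance between log2(FPKM + 1) values minus each gene's own mean. For Cxcl2 these were Csnk1d, Opa3 and Lima1, at distances of 0.0344, 0.0368 and 0.0423. Their levels were far lower, at 25.5, 12.6 and 10.1 FPKM in WT and 21, 10.4 and 8.13 FPKM in PGRN KO. For Cxcl16 the nearest were Zfp281 (0.0275), Lrrc59 (0.0461) and Gm48768 (0.0585), with WT means of 18.4, 31.6 and 5.20 FPKM and PGRN KO means of 12.8, 21.9 and 3.39 FPKM. None of the other CXC chemokines was among these nearest genes. Only 3 of 9248 genes were listed for each member, and with 6 libraries many genes lie close together. Their absence therefore says little about whether the chemokines share a pattern.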

How the data were processed

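Poly-adenylated mRNA was purified from total RNA with poly-T beads and made into libraries with the NEBNext Ultra kit. The labels' processing notes name CASAVA, HISAT2 2.0.5 and featureCounts 1.5.0-p3 on mm10 (GRCm38), whereas the methods of the study name other versions and another counter, so the exact pipeline is uncertain. Both sources state a ratio of fungus to neutrophils, but different ones, so none is printed. The authors deposited 1 table of FPKM values for 6 libraries. Dividing out gene length gave whole fragment numbers for 100% of values (within 0.05), and from these the fragments per library.

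The 8 genes were found by symbol. Values were tested with limma 3.58.1 (R 4.3.3) as log2(FPKM + 1), trended eBayes, for the 14807 genes with a mean of at least 0.1 FPKM, with Benjamini-Hochberg adjustment over all of them. Because the deposited unit is FPKM, the test on the log scale was the main one, and voom on the recovered fragments was an alternative. Since a pseudocount of 1 was added, fold changes of genes near 1 FPKM are understated. The script was tested on simulated data. Floors of 3 fragments cover counting error only. Replicate numbers are not shared between genotypes. Ratios were tested with exact permutation tests (scipy 1.17.1). Lists were described by counts and medians, without a set test. Named were Grn, all 8 members, every other CXC ligand and receptor, called genes of each further list (all if at most 4, otherwise the 2 highest and 2 lowest), and the 3 nearest patterns of the most abundant member and of the member with the smallest adjusted p; exceptions are stated. Members, lists and tests were chosen with earlier results of these data known. Alternatives were other pseudocounts, filters, scalings and eBayes settings, voom, and leaving out each library.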

Additional observations from a re-analysis of the deposited data

How the results depend on the processing

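Of the 5 chemokines called lower, 4 or 5 were called lower under each of the 16 alternatives, and 0 were called higher under any. The log2 fold change of every one stayed negative. Cxcl2 was the only one to lose its call. Its log2 fold change was -0.28 with all 22918 genes above 0 tested (limma, adjusted p = 0.117). It was -0.039 with quantile normalization and -0.16 with plain fragment totals, and from -0.35 to -0.25 when 1 library was left out. The causes of the lost calls were not tested. The tests were not rerun with other gene lengths; with transcript length the means of Cxcl5, Cxcl9 and Cxcl12 became 0.0572, 0.0196 and 0.0409 FPKM. Counts over all genes ranged from 581 higher and 804 lower without PGRN KO 5 to 2986 higher and 1252 lower with voom, against 1175 and 1473. Without WT 1, WT 2, WT 3 and PGRN KO 6 they were 695 and 987, 600 and 856, 698 and 1051, and 863 and 1241; with all genes above 0 they were 864 and 1173. No paired analysis was possible because the genotypes share no replicate numbers. Depth limits Cxcl5, Cxcl9 and Cxcl12, which had at most 5 fragments in any library, and 3 libraries per genotype limit the exact tests to p = 0.1 or more.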
